A study of Homo sapiens with 24 samples.

Results

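The cell-line difference in allelic effect was measured for 9870 single-base variants of 8316 SNPs in 1525 genes. They are the variants with a mean of at least 200 plasmid DNA counts for each allele in each of the cell lines, out of 13515 variants of 11265 SNPs in 1637 genes in the deposited table. The rule used DNA depth and no RNA value. The allelic effect is the log2 ratio of alternative to reference counts in RNA minus the same ratio in plasmid DNA. A positive effect means that the reporter with the alternative base left more RNA than its share of the plasmid predicts, and the value compared is the effect in MG minus the effect in SH. The question is where the same base change, in the same 3′ UTR fragment, had a different effect on reporter RNA in the 2 lines.

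The 3′ UTR follows the coding sequence of a messenger RNA and holds sites for microRNAs and RNA-binding proteins, which set how long a transcript lasts, where it goes and how well it is translated. Cell types differ in the microRNAs and RNA-binding proteins they make, so a base change in such a site can in principle act in 1 cell type and not in another. A massively parallel reporter assay places many fragments behind the same reporter gene, introduces the pool into cells and counts each fragment in RNA and in plasmid DNA. It reports on the fragment in the reporter, not on the expression of the gene that the fragment comes from.

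The lines were SH-SY5Y (SH), a human neuroblastoma line often used as a neuron-like model, and human microglia immortalised with SV40 (MG), a model of the macrophages of the brain. Both received the reporter pool with Lipofectamine 3000 and were grown in their own media with serum. Every one of 6 replicates per line yielded a library of plasmid DNA and a library of poly(A) RNA, so the 24 libraries form 4 groups (SH DNA, SH RNA, MG DNA and MG RNA). Each RNA replicate is an independent transfection per the labels' protocols. Each cell type is represented by 1 line, so a difference between the lines and a difference between neuronal and microglial cells cannot be told apart. Endogenous transcripts were not counted, so the labelled cell types could not be checked against marker genes. The fragment sequences and the positions of the SNPs were not used here, and a variant is placed by its gene only.

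Library totals ran from 16556722 to 19101103 counts in SH DNA, from 11764547 to 18100832 in SH RNA, from 12154918 to 17570853 in MG DNA and from 7018516 to 10437069 in MG RNA. The median over the variants of the rarer allele's mean count was 480 in SH RNA and 307 in MG RNA. SH RNA libraries spread more from replicate to replicate, with a median SD of the per-replicate effect of 0.62 in SH against 0.29 in MG, and 9115 of the 9870 variants had the larger SD in SH. Counts of same-numbered libraries of the lines deviated together, with a correlation over oligos of 0.066 to 0.115 for RNA and 0.043 to 0.076 for DNA, against values below 0 on average for other numbers. If this came from reads shared between them, the share would be 1.84% to 2.80% for RNA and 1.97% to 3.21% for DNA, but whether reads were shared was not tested. Values with that estimated share subtracted hold only under that assumption and are given below where a call of a named variant changes, and for PDLIM5.

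The difference between lines passed the threshold for 3 of the 9870 variants, and all 3 had a more negative effect in MG than in SH. They were STAT6 rs324015 A>G, PDLIM5 rs1139697 T>G and SPTSSB rs163327 T>A. The test was edgeR's quasi-likelihood F test of the interaction, fitted on all 12989 variants with at least 10 mean DNA counts per allele and line and adjusted by Benjamini-Hochberg over them, at 0.05. Of all variants fitted, 6 passed, 5 of them more negative in MG (0.0462% and 0.0385% of the variants fitted). The other 3 were FBLN1 rs74388276 C>T, GNE rs7048468 C>A and LMO7 rs9544054 C>T. They fell below the DNA minimum, with 24.5, 53.3 and 92.2 mean DNA counts for their rarest allele. At an unadjusted p under 0.05 there were 520 of the 9870 variants (5.27%, against 5.67% of all variants fitted), 261 more positive and 259 more negative in MG.

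STAT6 encodes the transcription factor that carries interleukin-4 and interleukin-13 signals to the nucleus, and occupies chromosome 12 between 57095408 and 57111362 (GRCh38.p14). At rs324015 the G allele made up 31.1% to 33.3% of the variant's counts in the 6 SH DNA libraries (median 31.7%) and 80.4% to 87.4% in the 6 SH RNA libraries (median 82.5%). In MG it made up 26.8% to 38.0% of the DNA counts (median 28.8%) and 36.3% to 49.5% of the RNA counts (median 47.97%). The SH RNA libraries were all far above the DNA of either line, while the MG RNA libraries overlapped the MG DNA libraries at their lower end. The allelic effect was 3.39 ± 0.28 in SH and 0.92 ± 0.31 in MG (log2, SD of the per-replicate effects, n = 6 each). The ratio of G to A counts was thus 10.5-fold higher in RNA than in plasmid DNA in SH, and 1.89-fold higher in MG. The difference was -2.47 (SE 0.19, 95% interval -2.85 to -2.08, edgeR adjusted p = 4.48e-10). No SH replicate overlapped any MG replicate (exact two-sided permutation test, p = 0.00216, the smallest that 6 against 6 allows).

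Reporter activity, which sets the RNA counts of 1 oligo against its DNA counts (log2, TMM scaled), shows which allele carried the STAT6 difference. The G oligo stood at 3.77 in SH, rank 1 of 24099 oligos, and at 0.79 in MG, rank 111. Its activity was lower in MG by log2 -2.97 (SE 0.14, edgeR adjusted p = 5.01e-17). The A oligo stood at 0.40 in SH and -0.11 in MG, a difference of -0.51 (SE 0.13, edgeR adjusted p = 0.0579). Across all oligos tested, 0.921% differed in activity between the lines. After subtraction of the estimated share of reads the MG effect was 0.50 (edgeR adjusted p = 0.0813), and the difference was -2.90 (adjusted p = 2.97e-11).

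PDLIM5 encodes a scaffold protein with PDZ and LIM domains that binds the actin cytoskeleton and protein kinase C, and occupies chromosome 4 between 94451942 and 94668223. At rs1139697 the G allele made up 53.2% to 58.2% of the counts in SH DNA (median 55.9%) and 93.1% to 95.5% in SH RNA (median 94.3%). In MG it made up 53.4% to 64.2% of the DNA counts (median 59.5%) and 60.3% to 78.9% of the RNA counts (median 69.8%). The SH RNA libraries lay within a narrow band above all others, and the MG RNA libraries began inside the range of the MG DNA. The effect was 3.70 ± 0.27 in SH, or 13.0-fold, and 0.62 ± 0.45 in MG (edgeR adjusted p = 0.205 in MG). The difference of -3.08 (SE 0.24, 95% interval -3.58 to -2.58, edgeR adjusted p = 5.38e-10) was the largest in size among the 9870 variants.

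At PDLIM5 too the G oligo was the one that differed. Its activity was 3.56 in SH, rank 2 of 24099 oligos, against 0.79 in MG, rank 114, a difference of -2.77 (SE 0.14, edgeR adjusted p = 3.39e-16). The T oligo stood at -0.10 and 0.19, a difference of 0.30 (SE 0.28, adjusted p = 0.775). In SH RNA the G oligo had a mean of 4993 counts and the T oligo 313, from 544 and 430 in SH DNA. After subtraction of the estimated share the MG effect was 0.23 (adjusted p = 0.865) and the difference -3.50 (adjusted p = 1.58e-10).

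SPTSSB encodes a small subunit of serine palmitoyltransferase, the enzyme that starts sphingolipid synthesis, and occupies chromosome 3 between 161344798 and 161371517. At rs163327 the A allele made up 46.7% to 60.2% of the counts in SH DNA (median 50.9%) and 71.0% to 92.6% in SH RNA (median 77.4%). In MG it made up 45.2% to 53.9% of the DNA counts (median 52.0%) and 39.5% to 53.7% of the RNA counts (median 48.2%). In MG the RNA libraries overlapped the DNA libraries, while every SH RNA library was above every DNA library. The effect was 1.83 ± 0.85 in SH and -0.23 ± 0.31 in MG, and the difference was -2.06 (SE 0.38, 95% interval -2.83 to -1.28, edgeR adjusted p = 0.0171).

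Here it was the reference oligo whose activity passed the test between the lines. The T oligo had an activity of -1.26 in SH (SE 0.24) and 0.06 in MG (SE 0.24), a difference of 1.32 (SE 0.34, edgeR adjusted p = 0.0497). The A oligo had 0.40 in SH and -0.15 in MG, a difference of -0.55 (SE 0.23, adjusted p = 0.319). The mean count of the T oligo in SH RNA was 185, from 567 in SH DNA. In SH RNA replicate 6 its count was 28, against 140 to 288 in the others. Over the 2468 variants with the lowest reference activity in SH (-2.61 to -0.15), which include this one, the median difference was -0.149 (35.5% positive). Over the 2468 with the highest it was 0.155 (71.5% positive). The difference and that activity share the reference counts in SH. Whether this shaped the SPTSSB value was not tested. The SH replicates ranged from 1.19 to 3.53 in effect, with the highest, replicate 6, far above the rest. Leaving it out gave a difference of -1.82 (adjusted p = 0.00546). The call of SPTSSB rs163327 T>A was lost without SH replicate 4 or MG replicate 1, 2, 4, 5 or 6 (-2.15 to -1.94), in a fit with the replicate number as a block (adjusted p = 0.0517), with limma and a spread of its own for each group (0.125), and with limma at a pseudocount of 0.1 (0.05045).

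**Figure D1:**
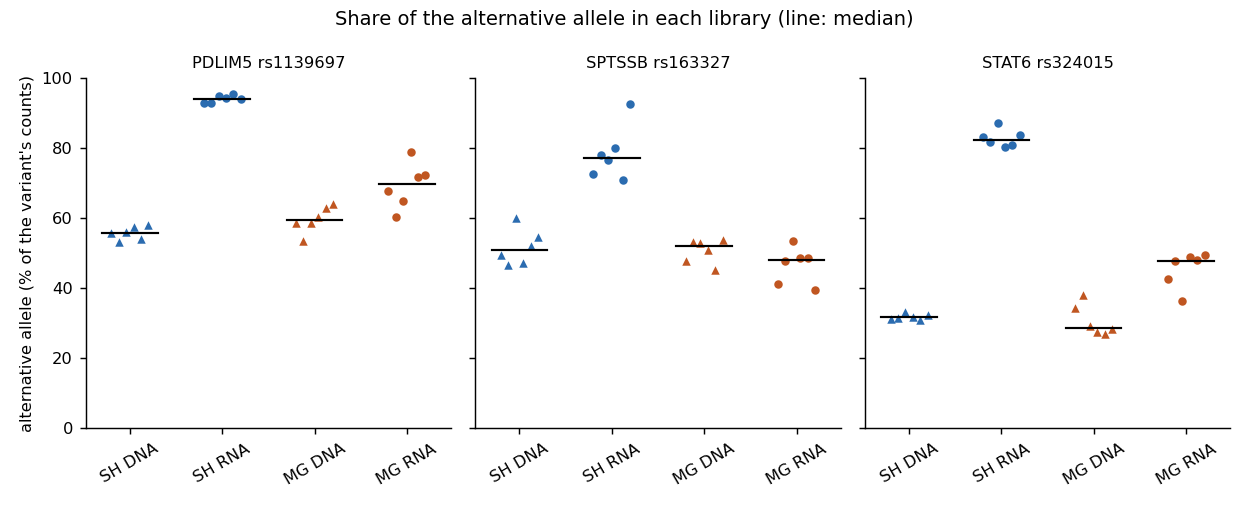
Percentage of a variant's counts that come from the alternative allele (vertical axis) in each of the 24 libraries, for the 3 variants whose allelic effect differed between lines. Triangles are DNA and circles RNA libraries, blue is SH and orange MG, and the horizontal line is the median of 6; SH RNA stands above the other groups in each panel, with medians of 94.3% for PDLIM5, 77.4% for SPTSSB and 82.5% for STAT6.

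Other bases at the same SNPs gave a direct comparison. The C allele of PDLIM5 rs1139697, tested against the same T reference, had effects of 0.50 ± 0.49 in SH and 0.46 ± 0.44 in MG, a difference of -0.04 (95% interval -0.85 to 0.78). The interval excludes a difference of the size measured for the G allele. The C allele of SPTSSB rs163327 had 1.16 ± 0.92 in SH and -0.01 ± 0.18 in MG. Its difference of -1.15 (95% interval -1.91 to -0.38, unadjusted p = 0.00438, edgeR adjusted p = 0.581) ran in the direction of the A allele and shares the T oligo with it. STAT6 rs324015 had only the G allele among the 9870 variants.

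Other variants in the same 3 genes lay nearer to 0. Of 16 further PDLIM5 variants the differences ran from -0.46 to 0.23 (median -0.06), with 2 at an unadjusted p under 0.05, rs1802345 C>T (-0.46, SE 0.23) and rs1056773 T>C (-0.46, SE 0.22). The 13 further SPTSSB variants ran from -1.15 to 0.87 (median -0.15), and rs13059340 A>G had the most positive difference (0.87, SE 0.34). The 3 further STAT6 variants, rs1059513 A>G, rs3024985 G>A and rs703817 G>A, had differences of 0.33, -0.33 and -0.02. None of these 32 passed (lowest adjusted p = 0.581).

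**Figure D2:**
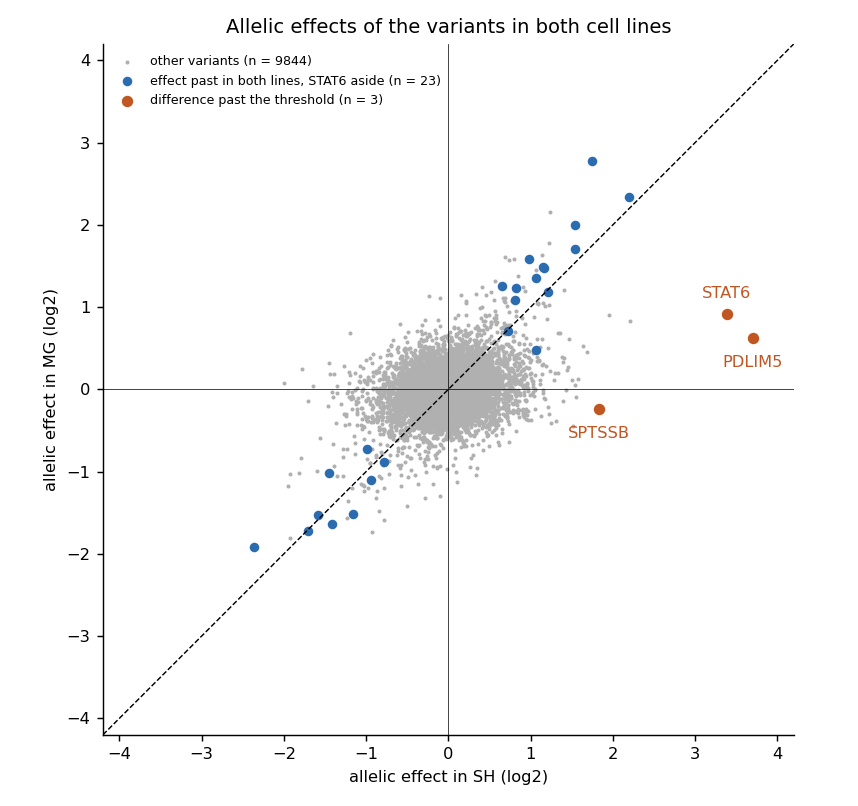
Allelic effect (log2) in SH (horizontal axis) and in MG (vertical axis) for the 9870 variants. Orange marks the 3 variants whose difference passed the threshold, blue the 23 others past the threshold in both lines, grey the remaining variants, and the dashed line equal effects; STAT6 at 3.39 and 0.92 and PDLIM5 at 3.70 and 0.62 lie furthest below it.

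The next differences by p did not pass, and are given as values. EFNA3 rs2306124 A>G, in the gene of the axon guidance ligand ephrin-A3, had -0.07 ± 0.16 in SH and -0.71 ± 0.09 in MG (difference -0.64, 95% interval -0.92 to -0.37, edgeR adjusted p = 0.0638). Its replicates ran from -0.21 to 0.21 in SH and from -0.83 to -0.59 in MG and did not overlap. The G oligo differed in activity by -0.73 between the lines and the A oligo by -0.09. The T allele of the same SNP had effects of -0.12 ± 0.25 and -0.06 ± 0.10. The difference for EFNA3 A>G passed without SH replicate 1 (-0.69, adjusted p = 0.0445) and after subtraction of the estimated share (-0.68, 0.0387). It also passed with pooled DNA (-0.54, 0.00269) and with DESeq2 (0.000934). It did not pass with limma (adjusted p = 0.281) or with limma and a spread of its own for each group (0.710). Nor did it pass with pooled DNA and that group spread in limma (0.454). With the replicate number as a block (0.270), or with the fit limited to the variants measured here (0.118), it did not pass either.

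On the positive side NHLRC3 rs9576711 G>T had the smallest p, with -1.04 ± 0.49 in SH and -0.02 ± 0.21 in MG (difference 1.03, 95% interval 0.56 to 1.49, edgeR adjusted p = 0.101). All 6 SH replicates, from -1.63 to -0.48, lay below all 6 MG replicates, from -0.33 to 0.19. TLR6 rs116126553 G>A, in the gene of the Toll-like receptor that senses bacterial lipopeptides together with TLR2, had -0.21 ± 0.30 in SH and 0.41 ± 0.11 in MG. Its difference was 0.62 (95% interval 0.31 to 0.93, edgeR adjusted p = 0.246). The A oligo's activity was higher in MG by log2 0.475 (edgeR adjusted p = 0.0176), and the G oligo's difference was -0.15 (0.709). UBE4A rs45529532 A>G, in a ubiquitin ligase gene, had -0.20 ± 0.35 and 0.50 ± 0.14 (difference 0.71, 0.36 to 1.06).

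The remaining top positive differences ran from 0.43 (ARHGEF10L rs10788680 A>G) to 1.54 (ZNF589 rs60305502 A>G, a zinc finger gene). Between them were FAM172A rs1372036 A>T (1.12), TTYH3 rs73281129 C>G (0.92), ZCCHC17 rs61780773 C>T (0.87), RDH13 rs10418743 C>T (0.73), CNPY3-GNMT rs736158 G>A (0.61) and SYT13 rs6416129 T>G (0.58). The remaining top negative differences ran from -1.37 (ASCC3 rs79028935 C>G, a helicase gene) to -0.68 (TRIM59-IFT80 rs1047210 T>G). GAB2 rs112191911 G>A, in a docking protein gene of receptor signalling, had 1.00 ± 0.24 in SH and 0.14 ± 0.25 in MG (difference -0.86), with no overlap. ETS2 rs711 A>C, in a transcription factor gene, had -0.19 ± 0.31 and -0.93 ± 0.24 (difference -0.74). ITGB5 rs61761685 T>C, an integrin gene, had -1.10, SPATA6L rs184204 G>A -0.99, and JRK rs4736367 T>C and rs3735995 T>C -1.04 and -1.08. At ETS2 and ITGB5 the other allele of the SNP, ETS2 rs711 A>G and ITGB5 rs61761685 T>G, had differences of -0.41 and 0.01. For the 21 of these 24 variants that did not pass, edgeR adjusted p ran up to 0.479.

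**Figure D3:**
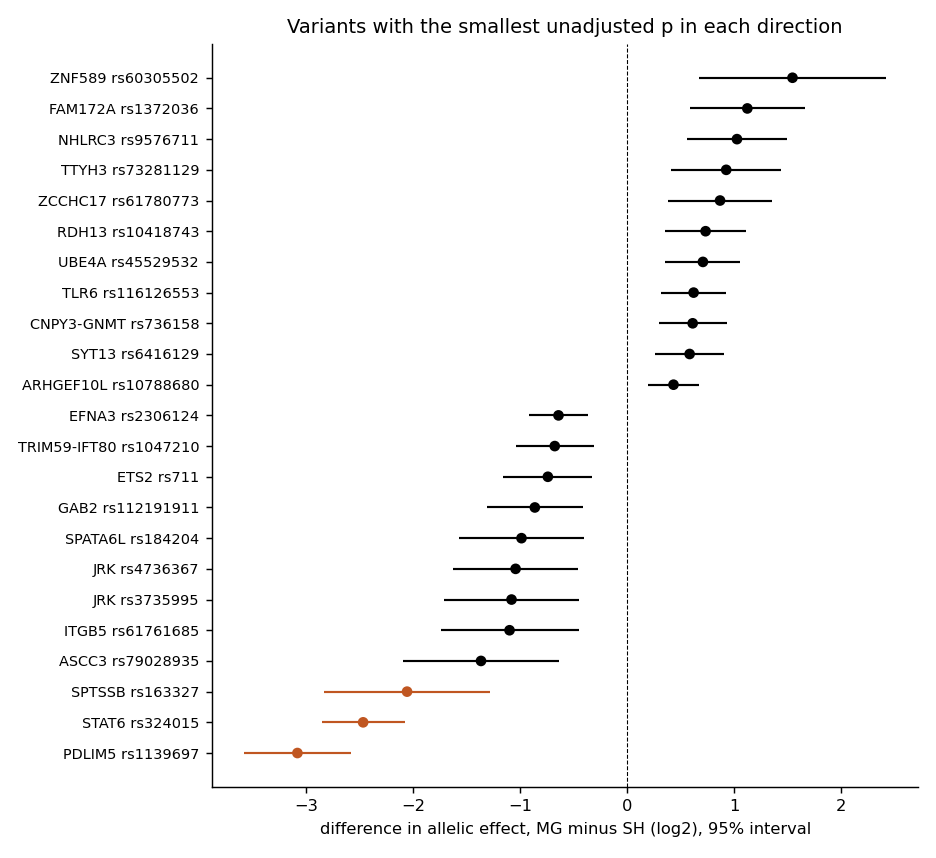
Difference in allelic effect between lines (MG minus SH, log2, horizontal axis) with its 95% interval for variants of smallest unadjusted p, 11 of the 12 positive and all 12 negative, at most 1 per SNP. The 3 that passed the threshold are orange (-3.08, -2.47 and -2.06), and the rest run from -1.37 to 1.54.

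Over all 9870 variants the difference had a median of 0.01, a median size of 0.23, and 5th and 95th percentiles of -0.63 and 0.62. Its median SE was 0.34. The 95% interval lay within -1 and 1 for 5558 variants (56.3%), so for these a difference of 2-fold or more lies outside the interval, and for 368 variants the interval held both -1 and 1. A size over 1 was measured for 184 variants and a size over 2 for 5. Those 5 were the 3 named above and, chosen after their values were seen, FANCD2OS rs7625186 C>A (2.02, SE 0.62) and HLA-E rs9283 G>A (2.04, SE 0.83), whose SH replicates had SDs of 1.35 and 1.88. SH and MG replicates did not overlap for 66 variants (0.669%, against 0.747% of all variants fitted), 31 higher and 35 lower in MG. Of the 520 variants at an unadjusted p under 0.05, 422 had effects of opposite sign in the lines (81.2%, against 43.4% of the 9870), which a choice by large difference itself favours. The larger effect was in SH for 388 (74.6%, against 60.4%). A choice by large difference also favours the line with the larger spread between replicates, here SH. Of the 520 variants, 464 had passed in neither line alone (89.2%, against 97.7%).

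Variants with an effect within a line give another view of the difference. In SH 37 of the 9870 passed, and of all variants tested there 0.399% did. In MG 214 passed, against 1.74% of all variants tested there. The median SD of the per-replicate effect was 0.62 in SH and 0.29 in MG. How far this spread set the counts of the lines apart was not tested. The sets share counts with the difference, so what follows is a description. Effects had the same sign in both lines for 36 of the 37 and for 202 of the 214, against 56.6% of the 9870. The median size of the 37 was 1.07 in SH and 1.02 in MG, and that of the 214 was 0.57 in SH and 0.87 in MG. Across the 9870, Pearson's r between the SH and MG effects was 0.308 and Spearman's rank correlation 0.205, over variants that share libraries and, in part, reference oligos.

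In SH alone 13 variants passed, and all of them had the smaller effect in MG. Choosing variants that passed in SH and not in MG itself favours this. The 13 were listed after their values were seen. Besides PDLIM5, SPTSSB, NHLRC3 and GAB2 they included CXCL12 rs169097 T>C, in the gene of a chemokine (-1.56 ± 0.47 in SH, -0.59 ± 0.31 in MG). ZDHHC5 rs1783979 T>A, in a palmitoyltransferase gene, had 1.01 ± 0.33 and 0.36 ± 0.21. DGKI rs2351138 G>A, in a diacylglycerol kinase gene, had -0.80 ± 0.32 and -0.16 ± 0.23, and KCTD10 rs11540749 G>A had -0.59 ± 0.21 and -0.13 ± 0.19. Both alternative alleles of TMEM245 rs58928086, T>A and T>C, had similar values, 0.61 and 0.62 in SH and 0.13 and 0.10 in MG. GNAL rs77723282 G>C and CCDC122 rs9533632 G>A had differences of -0.25 and 0.36. At an unadjusted p under 0.05 the difference stood for 10 of the 13.

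Across all variants measured here, 60.4% had the larger effect in SH. Choosing variants that passed in MG itself favours a larger effect in MG. Of the 214 variants past the threshold in MG, 174 had the larger effect in MG and 40 in SH. Among the strongest by p were SLC39A8 rs151371 G>A, TTYH3 rs114755822 G>A, MAP2K5 rs12900208 C>G, ATG13 rs7113453 G>A, C16orf62 rs116582019 C>A, ZKSCAN4 rs75876212 T>C and C1orf106 rs2275487 G>T. ZKSCAN4, a zinc finger gene, had -0.85 ± 0.52 in SH and -1.48 ± 0.23 in MG (difference -0.63, 95% interval -1.11 to -0.16). C1orf106 G>T had 0.74 ± 0.67 in SH and 1.58 ± 0.27 in MG (difference 0.84, 0.27 to 1.41). In 12 variants past in MG the SH effect had the opposite sign. They include TLR6, UBE4A and ITGB5 above, and, chosen after their values were seen, ARHGEF10L rs2134482 G>A (0.23 ± 0.44 in SH, -0.49 ± 0.17 in MG) and MUSTN1 rs187336973 C>T (-0.15 ± 0.36, 0.56 ± 0.26). None of the 12 had passed in SH (SH adjusted p from 0.683).

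The alternative allele was higher for 15 and lower for 9 of the 24 variants that passed in SH and in MG, each with 1 sign in both. The median size was 1.16 in SH and 1.41 in MG, and STAT6 was the 1 variant of the 24 whose difference passed. The narrowest intervals bound how far the lines could differ. CHRNB4 rs80037964 C>A, in a nicotinic receptor subunit gene, had 0.72 ± 0.40 in SH and 0.71 ± 0.24 in MG, a difference of -0.01 (95% interval -0.39 to 0.36). Its G and T alleles had differences of 0.26 and 0.09. TSTA3 rs75900260 A>G, in the gene of a GDP-fucose synthesis enzyme, had -0.78 ± 0.26 and -0.89 ± 0.30 (difference -0.11, -0.50 to 0.28). C1orf106 rs2275487 G>A had 0.82 ± 0.43 and 1.23 ± 0.27 (difference 0.41, -0.03 to 0.85). ORAOV1 rs73522762 A>C had 1.07 ± 0.42 in SH and 0.48 ± 0.24 in MG (difference -0.59, -1.01 to -0.17, edgeR adjusted p = 0.663). After subtraction of the estimated share of reads 20 of the 24 passed in both lines. Besides STAT6, the MG effect of ORAOV1 rs73522762 A>C (0.43, edgeR adjusted p = 0.0759) and the SH effects of CHRNB4 rs80037964 C>A (0.72, 0.0511) and C1orf106 rs2275487 G>A (0.82, 0.0511) no longer passed.

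Several of the strongest shared effects had nearly equal estimates in the lines, while those of C16orf62 and SLC39A8 lay further apart. ADH1C rs2298753 A>C, whose gene encodes an ethanol-oxidising enzyme, had -1.59 ± 0.45 in SH and -1.53 ± 0.23 in MG (difference 0.06, 95% interval -0.43 to 0.54). MAP2K5 rs12900208 C>G, in the gene of the kinase upstream of ERK5, had -1.70 ± 0.72 and -1.72 ± 0.40 (difference -0.03, -0.67 to 0.62). SFTA2 rs2532925 C>T had 1.22 ± 0.39 and 1.18 ± 0.21 (difference -0.03, -0.49 to 0.43). ATG13 rs7113453 G>A, in an autophagy initiation gene, had 1.54 ± 0.77 and 1.71 ± 0.21 (difference 0.17, -0.43 to 0.77), and TTYH3 rs114755822 G>A 2.20 ± 0.85 and 2.34 ± 0.44 (difference 0.15, -0.56 to 0.86). C16orf62 rs116582019 C>A, whose gene is now named VPS35L, had 1.54 ± 0.83 and 1.99 ± 0.46 (difference 0.47, -0.22 to 1.15). SLC39A8 rs151371 G>A, in the gene of a zinc and manganese importer, had 1.75 ± 0.52 and 2.77 ± 0.34, a difference of 1.03 (0.39 to 1.67, edgeR adjusted p = 0.505). Its G oligo stood at -1.36 in SH and -2.38 in MG, and its A oligo at 0.33 and 0.39.

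**Figure D4:**
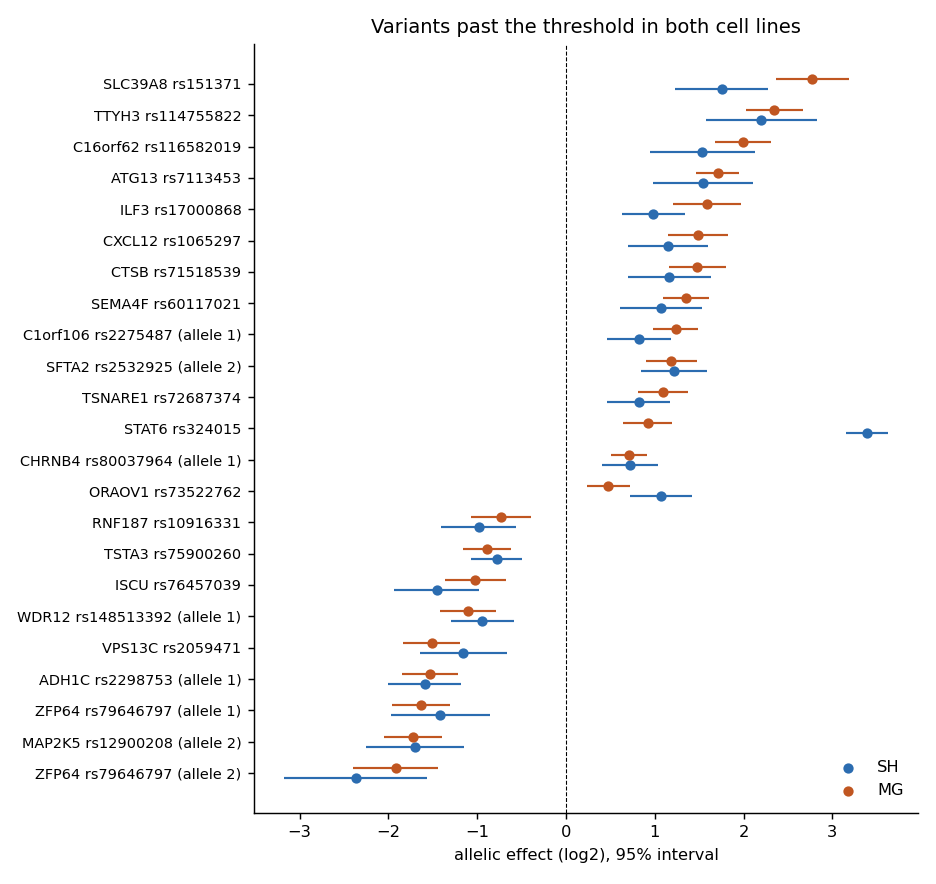
Allelic effect (log2, horizontal axis) with its 95% interval in SH (blue) and MG (orange) for 23 of the 24 variants past the threshold in both lines, named by gene and SNP; the allele number in brackets tells alternative alleles of 1 SNP apart. The STAT6 intervals, 3.15 to 3.63 in SH and 0.64 to 1.19 in MG, stand far apart, while those of ADH1C, SFTA2 and MAP2K5 cover each other.

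The variants were grouped by 13 gene lists, given as counts and medians beside those of all 9870 variants (median difference 0.01, 5.27% at an unadjusted p under 0.05, median SE 0.34). No list has a test here. Microglial and myeloid genes had 51 variants, 6 of them at that p (11.8%), 4 more positive and 2 more negative in MG, with a median difference of 0.04. None passed, and the smallest p belonged to TREML2 rs7754593 C>A, a TREM-family receptor gene (0.30 ± 0.72 in SH, -0.80 ± 0.55 in MG). Cytokine and innate immune genes had 123 variants with 8 at that p, 7 of them more positive, and STAT6 as the 1 that passed. HLA genes, which present antigen, had 172 variants with 12 at that p, 8 more positive and 4 more negative. HLA-DPB1 alone held 97 of the 172, with rs3117227 A>G as the smallest p (difference -1.08, SE 0.33). Near-identical HLA fragments could share reads, so these values are uncertain.

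Synapse and neurotransmitter receptor genes had 3 of 168 variants at an unadjusted p under 0.05 (1.79%) and none with a size over 1. The smallest p was at GRIN2B rs12811726 T>A, an NMDA receptor subunit gene (-0.28 ± 0.38 in SH, 0.68 ± 0.39 in MG). Alzheimer disease genes had 5 of 143, all more negative in MG, led by ABCA7 rs3752246 G>C, a lipid transporter gene (0.64 ± 0.45 and -0.22 ± 0.22). Parkinson disease genes had 6 of 147, 5 more positive, and the largest median of these 3 lists, 0.08. Of those 5 variants, 3 were in 1 gene, VPS13C. VPS13C rs11638951 C>T, in a lipid transfer protein gene that is also on the lysosome list, led both (-1.19 ± 1.38 and 0.68 ± 0.51), with SH replicates from -3.03 to 0.29. Lysosome, endosome and autophagy genes had 6 of 163, 4 more positive, of which 3 were the same VPS13C variants.

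A further 6 lists had from none to 25 such variants. Zinc finger genes had 25 of 466 variants at an unadjusted p under 0.05 (5.36%), 17 more positive and 8 more negative in MG. Solute carrier genes had 11 of 200 (5.50%), 3 and 8. TRIM genes, which encode ubiquitin ligases, had 14 of 145 (9.66%), 8 and 6. RNA-binding and microRNA pathway genes had 1 of 63, GIGYF1 rs116042719 G>A (difference -1.48, 95% interval -2.93 to -0.03). Alcohol and aldehyde metabolism genes had 1 of 10, ADH1B rs1042026 A>G (1.76, 0.58 to 2.94), and histone genes 0 of 6, with HIST1H4A rs3734528 A>C at 0.32 (unadjusted p = 0.0538). Apart from STAT6 no variant of any list passed.

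**Figure D5:**
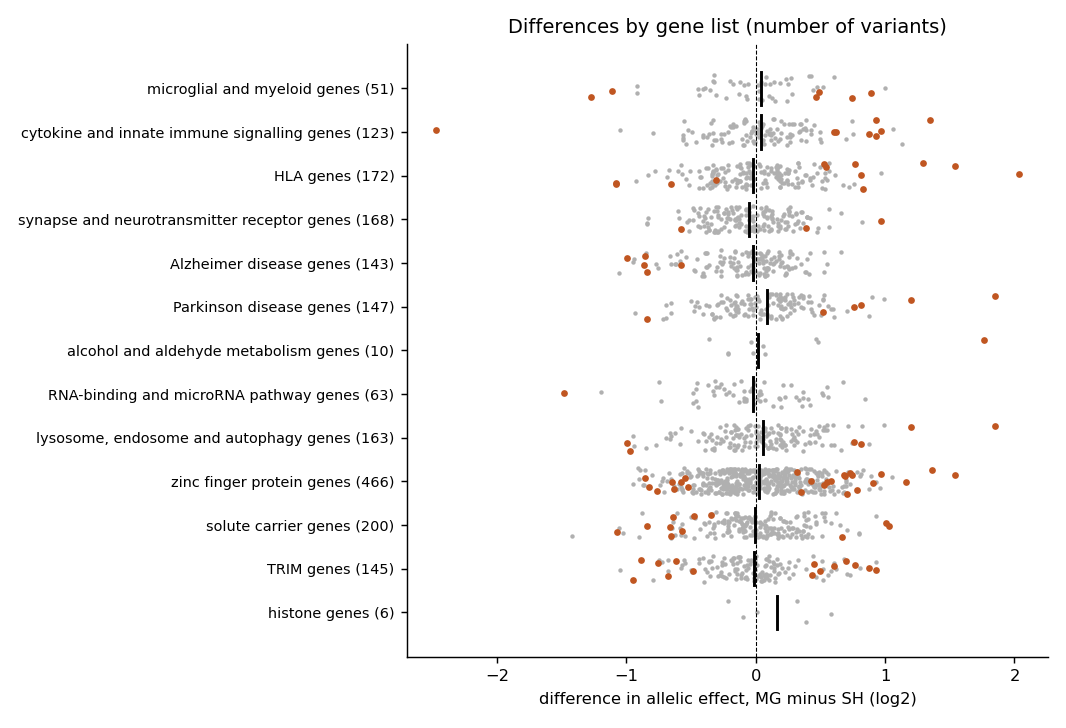
Difference in allelic effect (MG minus SH, log2, horizontal axis) of each variant in the 13 gene lists, with the number of variants in brackets; points are spread vertically for visibility. Orange points have an unadjusted p under 0.05 and black bars are medians, which lie between -0.05 and 0.17; STAT6 is the point at -2.47.

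Kinds of substitution are compared by their counts, with no test. The share at an unadjusted p under 0.05 was 5.20% of 6179 transitions and 5.39% of 3691 transversions, and among the 6 base pairs it ran from 4.57% (A and T exchanged) to 6.91% (C and G exchanged). Variants that gained a G or C had 5.35%, those that lost one 4.92%. The median differences of these classes were 0.02 or less in size. For SNPs with 2 or more alternative alleles, 1715 pairs of alleles could be compared, and 1136 (66.2%) had a difference of the same sign. The paired differences correlated with Pearson's r = 0.494, and both alleles of a pair share the counts of the reference oligo. By gene, 390 genes held a variant at that p. HLA-DPB1 held 8 of its 97 and RNF24 5 of 29, while HDDC3 held 3 of 4 at 2 SNPs, all more positive (median difference 0.74), genes chosen after their values were seen.

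Precision differed with RNA depth across variants. For the 2474 variants with the lowest mean RNA counts for their rarest allele (25.8 to 198) the median SE was 0.48, and 15.0% had an interval within -1 and 1. For the 2468 with the highest (from 498.5) the median SE was 0.22 and that share was 94.5%. A size over 1 was measured for 147 of the former and 2 of the latter. The share at an unadjusted p under 0.05 was 5.25% and 5.71% respectively. At the DNA minimum, the 100 variants just inside (200 to 205 mean counts) had a median size of 0.37 and the 100 just outside (193 to 200) one of 0.44, with no call in either.

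The plasmid baseline was measured apart in each line. The DNA ratio of alternative to reference passed as different between the lines for 0 of the 9870 variants by limma (lowest adjusted p = 0.180). At an unadjusted limma p under 0.05 there were 809, against 520 for the difference in effect by edgeR. The absence of a pass therefore does not show that the DNA ratios of the lines were equal. The difference in DNA ratio had a median size of 0.11. It correlated with the difference in effect at Pearson's r = -0.294, of which it is a term with opposite sign. With the DNA of both lines pooled as 1 baseline, 91 variants passed, 56 more positive and 35 more negative, and 88 of the 91 were at an unadjusted p under 0.05 before. With that baseline and a spread of its own for each group, in limma, 3 passed.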

How the data were processed

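Reads of plasmid DNA and reporter RNA were counted per allele in 24 libraries. The deposited values are whole-number counts per oligo, which the authors made with cutadapt 2.7, UMI-tools 1.0.0, SAMtools 1.10 and Bowtie2 (no version listed) and the build hg38, per the submitters' processing notes. The sources used here do not state if DNA reads were collapsed by molecular index.

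The reference and alternative columns of all libraries (48) were fitted with edgeR 4.0.16 in R 4.3.3, with a term per library, on variants with at least 10 mean DNA counts per allele and line, and p-values were adjusted by Benjamini-Hochberg. Effects per replicate set an RNA library against the mean DNA ratio of its line (pseudocount 0.5), and ± gives their SD. limma 3.58.1 and DESeq2 1.42.0 served as alternatives. The code was tested on simulated data. Gene positions come from RefSeq, GRCh38.p14. Of the genes, 1442 matched by symbol and 70 by an older symbol.

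Named variants are those that passed, the 12 smallest p in each direction, the 8 smallest p of the effect in each line, the 6 narrowest intervals among variants past in both lines, the smallest p of each gene list, and other alleles of these SNPs. Some named variants are not reported here. Members and lists were chosen with earlier results of these data known. The labels tie the DNA and RNA of a replicate number to 1 transfection. Deviations of their allele ratios correlated at 0.011 to 0.057 in SH and 0.020 to 0.072 in MG. For other numbers the values were -0.039 to 0.020 in SH and -0.039 to 0.016 in MG. The main fit leaves this pairing out, and the count with a replicate block is given below. Libraries of a group all differed by more than sampling noise (chi-square over its degrees of freedom at least 4.22). The p-values measure the spread between transfections of these 2 lines. Alternatives changed the tool, scaling, filter, pseudocount, DNA baseline, weights, pairing, estimated read sharing or replicates.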

Additional observations from a re-analysis of the deposited data

Results flagged for a closer look

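The difference between lines was tested directly and passed for PDLIM5 rs1139697 T>G (-3.08), STAT6 rs324015 A>G (-2.47) and SPTSSB rs163327 T>A (-2.06).

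Among 128 groups of 6 replicates of the named variants, 9 held a replicate far from the others, 5 in SH and 4 in MG, and chance flags about 1 in 20 groups. In SH these were replicate 6 of SPTSSB rs163327 T>A (3.53), replicate 3 of ADH1C rs2298753 A>C (-2.49), of SLC39A8 rs151371 G>A (2.80) and of ABCA7 rs3752246 G>T (-0.053), and replicate 2 of GIGYF1 rs116042719 G>T (4.16). In MG they were replicate 6 of GIGYF1 rs116042719 G>A (1.35) and G>T (2.48) and of JRK rs3735995 T>C (-0.57), and replicate 3 of HIST1H4A rs3734528 A>G (-0.23).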

How the results depend on the processing

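The count of 3 differing variants was 2 to 5 with 1 replicate left out, and was 5 without SH replicate 1. It was 14 with DESeq2 (8 more positive in MG, 6 more negative), and 91 with the DNA of both lines pooled as 1 baseline. That pooled baseline with limma and a weight per group, chosen after seeing the data, gave 3. With the replicate block it was 2, since SPTSSB rs163327 T>A was lost (-2.09, edgeR adjusted p = 0.0517), as it was with limma at a pseudocount of 0.1 (adjusted p = 0.05045) and with weights (0.125). After subtraction of the estimated share of reads 35 of the 37 variants past in SH and 202 of the 214 in MG still passed. STAT6 rs324015 A>G and PDLIM5 rs1139697 T>G passed in every alternative fit, and PDLIM5 rs1139697 T>G, with fewer than 500 mean DNA counts for both alleles in MG, is outside a minimum of 500, which left 2. By limma 15 variants passed in SH in place of 37 and 118 in MG in place of 214. Of the oligos, 222 differed in activity (39 higher in MG), and 147 did with scaling by total counts (56 higher in MG, median shift 0.09). The causes were not tested.

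Of the 64 named variants 50 kept their sign in all alternatives and 14, with differences of 0.17 or less in size, did not. With pooled DNA in edgeR, and with pooled DNA in limma with a weight per group, the values were -0.11 and -0.12 for TTYH3 rs114755822 G>A, 0.16 and 0.16 for PDLIM5 rs1139697 T>C, and -0.17 and -0.17 for ITGB5 rs61761685 T>G, which had -0.003105 with separate TMM scaling. GIGYF1 rs116042719 G>T had -0.11 with limma, with weights and with a pseudocount of 1, -0.10 with a pseudocount of 0.1 and -0.047 with the replicate block. With 1 replicate left out the ranges were those of ADH1C rs2298753 A>C (-0.12 to 0.12), TTYH3 rs114755822 G>A (-0.0073 to 0.35), SFTA2 rs2532925 C>T (-0.16 to 0.075), MAP2K5 rs12900208 C>G (-0.29 to 0.17), ATG13 rs7113453 G>A (-0.026 to 0.32), CHRNB4 rs80037964 C>A (-0.13 to 0.075), TSTA3 rs75900260 A>G (-0.22 to 0.0032), PDLIM5 rs1139697 T>C (-0.17 to 0.096), EFNA3 rs2306124 A>T (-0.037 to 0.13), ITGB5 rs61761685 T>G (-0.24 to 0.30), SFTA2 rs2532925 C>G (-0.45 to 0.12), MAP2K5 rs12900208 C>A (-0.0045 to 0.22), CHRNB4 rs80037964 C>T (-0.077 to 0.29) and GIGYF1 rs116042719 G>T (-0.41 to 0.69).

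The 95% interval lay within -1 and 1 for 5558 of the 9870 variants. The median SE was 0.48 for the variants with the lowest RNA counts and 0.22 for those with the highest, and the replicate spread was larger in SH, whose RNA libraries were deeper.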
